A study of Homo sapiens with 6 samples.

Results

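The genes examined here are 10 genes of the integrated stress response and the unfolded protein response in SH-SY5Y cells, a human neuroblastoma line. They were chosen by name (ATF4, DDIT3, ASNS, PSAT1, TRIB3, CHAC1, SESN2, XBP1, HSPA5 and HERPUD1), and all 10 were found among the 21301 genes of the RNA-seq table and among the 19694 genes that passed the filter on low counts. The cells had been treated for 72 h with a control siRNA (siControl, 3 libraries) or with siPSF, an siRNA at 10 nM against SFPQ, the gene of the RNA-binding protein PSF (3 libraries). Both groups are cultures of this cell line, and the study used a single siRNA sequence against PSF for RNA-seq and called the replicates biological. SFPQ itself was at 372, 356 and 401 CPM (counts scaled to library size) in siControl replicates 1 to 3 and at 209, 193 and 165 CPM in siPSF replicates 1 to 3, so the 3 siPSF values were all under the lowest control. A shift in the mix of cells and a shift in RNA per cell cannot be told apart in such bulk samples.

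The integrated stress response is a pathway by which cells slow translation. Kinases that sense amino acid shortage, ER stress, double-stranded RNA or heme shortage phosphorylate the initiation factor eIF2, general protein synthesis falls, and the mRNA of the transcription factor ATF4 is translated better because of short reading frames upstream of its own. ATF4 then raises genes for amino acid synthesis and transport, and DDIT3 (also called CHOP) follows under lasting stress. The unfolded protein response is the arm that starts in the ER. There the sensors PERK (EIF2AK3), IRE1 (ERN1) and ATF6 are released when the chaperone HSPA5 (also called BiP) is occupied by unfolded proteins, and IRE1 splices the XBP1 mRNA. Because much of this control is exerted on translation and splicing, a count of reads per gene gives the amount of ATF4 and XBP1 RNA but neither the amount of ATF4 protein nor the spliced share of XBP1.

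After PSF knockdown, the RNA of ATF4 was at 121.5% of its siControl level, and none of the other 9 genes passed the test. This was 1 of 10 genes called, or 10% of them, beside 14.9% of all genes tested (6.65% higher and 8.27% lower; edgeR's quasi-likelihood test, Benjamini-Hochberg adjusted p under 0.05 over all 19694 genes). The share of called genes among the 10 was thus not above that of all genes. At an unadjusted p under 0.05 the count was also 1 higher and 0 lower, as it was with DESeq2's Wald test. The median log2 fold change of the 10 genes was 0.0013, beside 0.0097 for all genes tested, and 5 of the 10 had a positive log2 fold change.

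The promoters of these genes carry well-known response elements, and the sequences below are shown because they tie the genes to the ATF4 arm or to the ER arm. All 10 genes had an entry in RefSeq's promoters of GRCh38.p14, which hold the 300 bases around a gene start. Both strands were searched for the C/EBP-ATF response element CARE (TGATGNAA), the ER stress response elements ERSE (CCAAT and CCACG, 9 bases apart) and ERSE-II (ATTGG and CCACG, 1 base apart), the cAMP response element CRE (TGACGTCA) and the unfolded protein response element UPRE (TGACGTGG). CARE was in 3.67% of the 27305 promoters searched, CRE in 1.98% and UPRE in 0.795%, whereas ERSE was in 0.0806% and ERSE-II in 0.0549%. Of the 10 promoters, 3 held CARE (ASNS, CHAC1 and HERPUD1), 2 held ERSE (HSPA5 and XBP1) and 1 held ERSE-II (HERPUD1), and the 5 others (ATF4, DDIT3, TRIB3, PSAT1 and SESN2) held none of the 5 motifs in this window. Each stretch is written 5′ to 3′ on the gene's strand, with the motif in capitals.
ASNS, chr7:97872457-97872488, minus strand, CARE from base -68 to -61 before the start: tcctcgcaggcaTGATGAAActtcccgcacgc
CHAC1, chr15:40953250-40953281, plus strand, CARE on the reverse strand from -209 to -202: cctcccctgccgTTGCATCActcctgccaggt
HERPUD1, chr16:56931954-56931985, plus strand, CARE on the reverse strand from -176 to -169: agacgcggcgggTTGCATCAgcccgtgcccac
HERPUD1, chr16:56932013-56932047, plus strand, ERSE-II from -117 to -107: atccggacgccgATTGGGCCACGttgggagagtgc
HSPA5, chr9:125241379-125241421, minus strand, ERSE from -66 to -48: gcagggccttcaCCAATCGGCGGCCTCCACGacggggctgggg
XBP1, chr22:28800591-28800633, minus strand, ERSE from -52 to -34: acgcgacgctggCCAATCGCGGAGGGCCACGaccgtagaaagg
CHAC1 and HERPUD1 held CARE in the same 8 letters, the ASNS window lies at a start inside the span of the gene, and HERPUD1 was the only one of the 10 with both a CARE and an ER stress element. A match in these letters is a description of the sequence and does not show that a factor was bound in these cells.

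Per transcript length, in FPKM as deposited, all 10 genes were among the upper 8.7% of genes in the siControl cells, and ATF4-arm and ER-arm genes were interleaved. ASNS, which makes asparagine, had 351 ± 36.2 FPKM (SD, n = 3) and stood at rank 145 of all genes. PSAT1 (187.5 ± 12.6), ATF4 (179 ± 12.4), TRIB3 (171 ± 12.3) and XBP1 (166 ± 3.03 FPKM, SD, n = 3 each) formed a second level, within which the libraries of each neighbour in this order overlapped. CHAC1 followed at 98.4 ± 6.26 FPKM and overlapped neither neighbour. DDIT3 (52.3 ± 3.50) and SESN2 (52.2 ± 1.90) could not be ordered, and HERPUD1 (45.7 ± 0.405) and HSPA5 (36.4 ± 1.61 FPKM, SD, n = 3 each) came last, each below the one before it in every library. The ER chaperone HSPA5 was therefore the least abundant of the 10 per length, with ASNS 9.65 times as high. In siPSF cells the order of the means was the same except that ATF4 moved ahead of PSAT1 and SESN2 ahead of DDIT3.

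**Figure D1:**
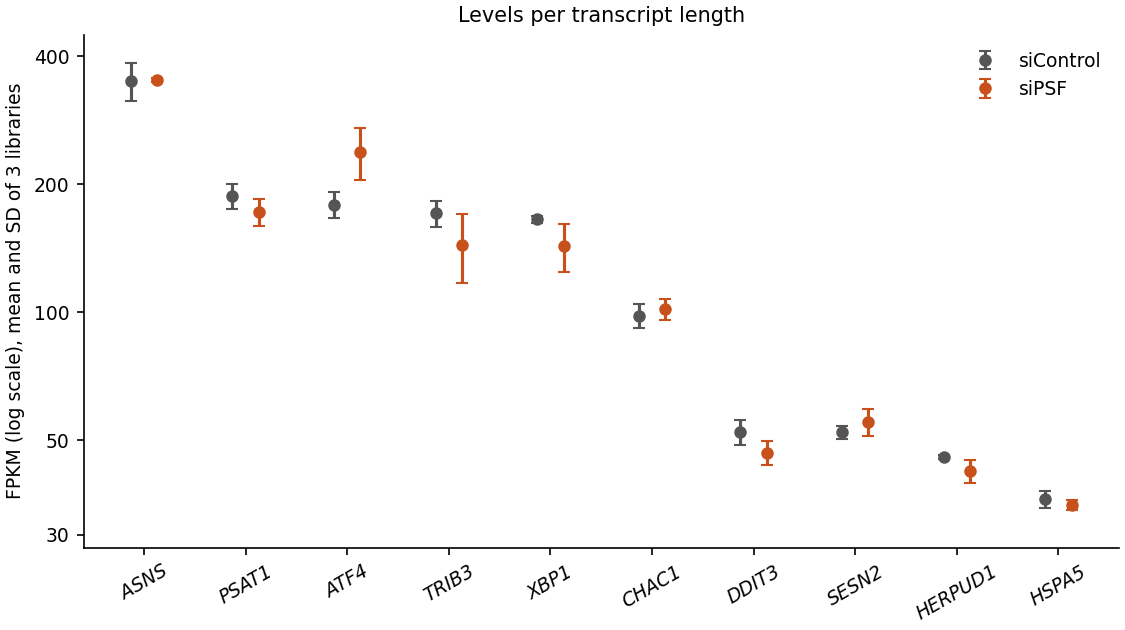
Levels of the 10 genes per transcript length: the deposited FPKM (log axis) as mean and SD of 3 libraries, siControl in grey and siPSF in orange, ordered by the siControl mean. ASNS lies highest at 351 FPKM and HSPA5 lowest at 36.4 FPKM in siControl.

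ATF4 (gene ID 468; chromosome 22 of GRCh38 from 39520559 to 39522686, plus strand) encodes the transcription factor at the centre of the response. Its level was 433, 451 and 406 CPM in siControl replicates 1 to 3 and 510, 528 and 529 CPM in siPSF replicates 1 to 3. All 3 siPSF libraries were above all 3 siControl libraries and lay closer together than the controls did. The mean was 430 ± 22.7 CPM in siControl (SD, n = 3) and 523 ± 10.7 CPM in siPSF (SD, n = 3). The log2 fold change was 0.28 (standard error, SE, 0.08; 95% interval 0.11 to 0.46), and edgeR's adjusted p was 0.036. By its p-value ATF4 stood at rank 2465 of the 19694 genes tested. The groups of 34.4% of all genes tested did not overlap. The call was close to the threshold: with any one of the 6 libraries left out, the log2 fold change stayed between 0.24 and 0.31 but the adjusted p was 0.058 to 0.10, so that 0 of these 6 fits called ATF4. DESeq2's Wald test on all 6 libraries gave an adjusted p of 0.021.

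The deposited FPKM values of ATF4 differed from its counts, most of all in siPSF replicate 3. They were 171, 193 and 173 FPKM in siControl and 223, 216 and 277 FPKM in siPSF replicates 1 to 3, so siPSF replicate 3 stood far above the other 2 on this scale and level with replicate 2 on the CPM scale. FPKM per count, set relative to the gene's median library after removing the difference between whole libraries, was 1.28 for ATF4 in siPSF replicate 3 and between 0.92 and 1.05 in the other 5 libraries. Among the 13115 genes whose 6 counts were all 200 or more, 0.724% deviated at least as much, and the largest deviation of any other gene of the 10 was 1.85%, in DDIT3. On log2(FPKM + 0.5), limma gave ATF4 a log2 fold change of 0.41 (adjusted p = 0.023). The count-based value is therefore used below. The ATF4 pseudogenes in the table had few reads: ATF4P3 had the most, at 0.189% of the ATF4 count.

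**Figure D2:**
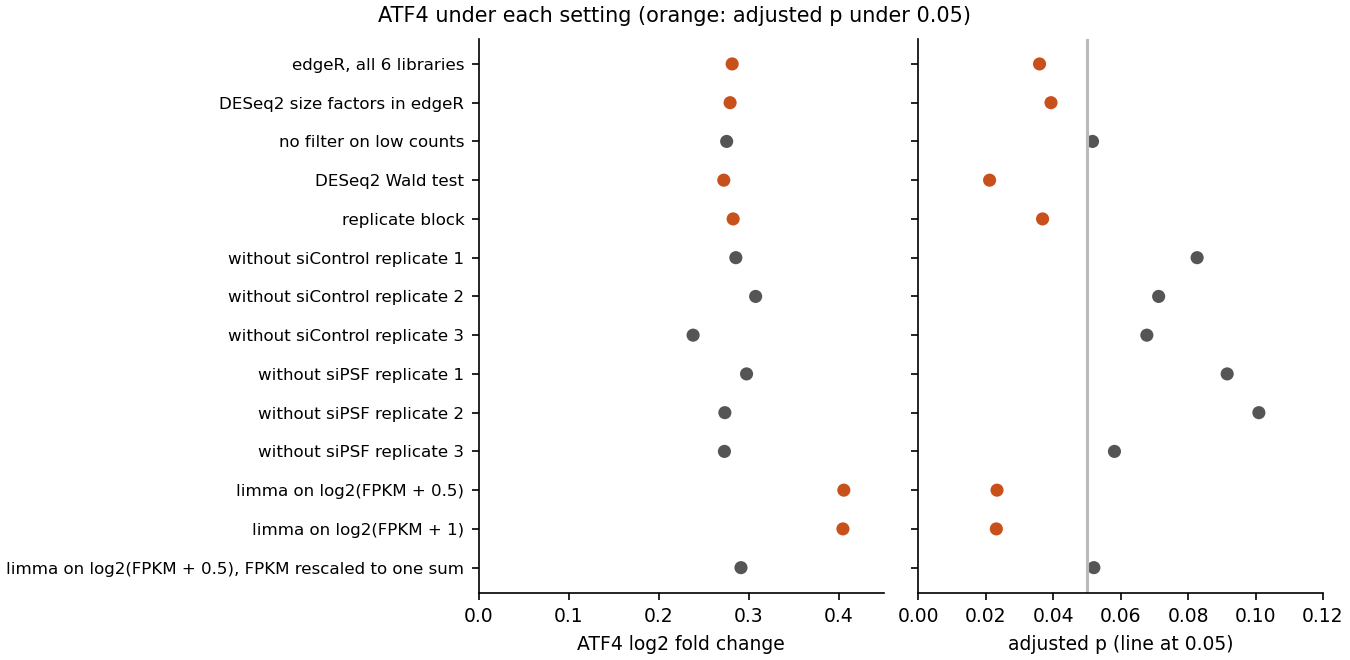
ATF4 under each setting: log2 fold change, siPSF against siControl (left), and adjusted p (right), 1 row per setting, orange where the adjusted p was under 0.05. The log2 fold change was positive in every row, from 0.24 to 0.41, while the adjusted p lay between 0.058 and 0.10 in the 6 rows that leave out 1 library.

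DDIT3 (gene ID 1649; chromosome 12, 57516588 to 57520517, minus strand), the CHOP transcription factor that acts downstream of ATF4, was at 59.8, 53.4 and 51.3 CPM in siControl and at 54.7, 49.5 and 50.3 CPM in siPSF. The groups overlapped, with the highest value in siControl replicate 1. Its log2 fold change was -0.09 (SE 0.09, edgeR's adjusted p = 0.55), and the 95% interval ran from 81.8% to 108% of the siControl level, so that a rise of the size fitted for ATF4 lay outside it. Such a rise also lay outside the intervals of PSAT1, TRIB3, XBP1, HSPA5 and HERPUD1 given below. It lay inside those of ASNS, CHAC1 and SESN2. In GENCODE's annotation of GRCh38, 27.2% of the exonic bases of DDIT3 are also exons of MARS1, the methionyl-tRNA synthetase gene on the opposite strand. A further 4.4% are exons of MBD6, also on the opposite strand, and 8.0% belong to an overlapping protein-coding gene on the same strand. The labels name a stranded library kit and the study's methods another TruSeq kit, use of strand in the counting is not given in the sources used here, and reads of these stretches may be shared, so the level of DDIT3 is uncertain. MARS1 averaged 473 ± 24.4 CPM over the siControl libraries and 490 ± 27.7 CPM over the siPSF libraries (SD, n = 3 each), and its log2 fold change was 0.05 (edgeR's adjusted p = 0.74).

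Both enzymes of amino acid synthesis stayed within the spread of their replicates. ASNS (gene ID 440; chromosome 7, 97851677 to 97928441, minus strand) was at 1016, 871 and 810 CPM in siControl and at 930, 968 and 953 CPM in siPSF. The siPSF libraries lay inside the range of the siControl libraries, and siControl replicate 1 was the highest of all. The log2 fold change was 0.08 (SE 0.10, edgeR's adjusted p = 0.63), with a 95% interval from 91.4% to 122% of the siControl level. In GENCODE 49.3% of its exonic bases also belong to a lncRNA on the same strand, so its level holds any reads of that RNA. Its pseudogene ASNSP1 had 2.95% of the reads of ASNS and a log2 fold change of 0.0025. In PSAT1 (gene ID 29968; chromosome 9, 78297125 to 78330093, plus strand), an aminotransferase of serine synthesis, the levels were 439, 425 and 463 CPM in siControl and 457, 428 and 404 CPM in siPSF. The groups overlapped again, with siPSF replicate 3 the lowest. Its log2 fold change was -0.04 (SE 0.08, edgeR's adjusted p = 0.78; 95% interval 85.5% to 110% of the siControl level).

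TRIB3, CHAC1 and SESN2 are further targets of ATF4 that restrain growth or feed back on the pathway. TRIB3 (gene ID 57761; chromosome 20, 380760 to 397559, plus strand), a pseudokinase that binds ATF4 and AKT, had the widest siPSF spread relative to its mean. It was at 484, 470 and 405 CPM in siControl and at 424, 463 and 320 CPM in siPSF, so that replicates 1 and 2 of siPSF were within the siControl range and replicate 3 was below it. TRIB3 had a log2 fold change of -0.17 (SE 0.13, edgeR's adjusted p = 0.40; 95% interval 73.4% to 107% of the siControl level), and it was -0.03 without siPSF replicate 3. CHAC1 (gene ID 79094; chromosome 15, 40953471 to 40956512, plus strand), which breaks down glutathione, was at 166, 175 and 150 CPM in siControl and 166, 176 and 189 CPM in siPSF. Only siPSF replicates 2 and 3 exceeded the highest control. Its log2 fold change was 0.11 (SE 0.09, edgeR's adjusted p = 0.42; 95% interval 94.7% to 124%).

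SESN2 (gene ID 83667; chromosome 1, 28259518 to 28282491, plus strand), a leucine sensor that inhibits mTORC1 and is also a p53 target, had the largest positive log2 fold change after ATF4. Its levels were 188, 203 and 190 CPM in siControl and 212, 234 and 202 CPM in siPSF. Replicate 3 of siPSF fell just below siControl replicate 2, so the groups overlapped. The log2 fold change was 0.16 (SE 0.08, edgeR's adjusted p = 0.24; 95% interval 98.0% to 127% of the siControl level).

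**Figure D3:**
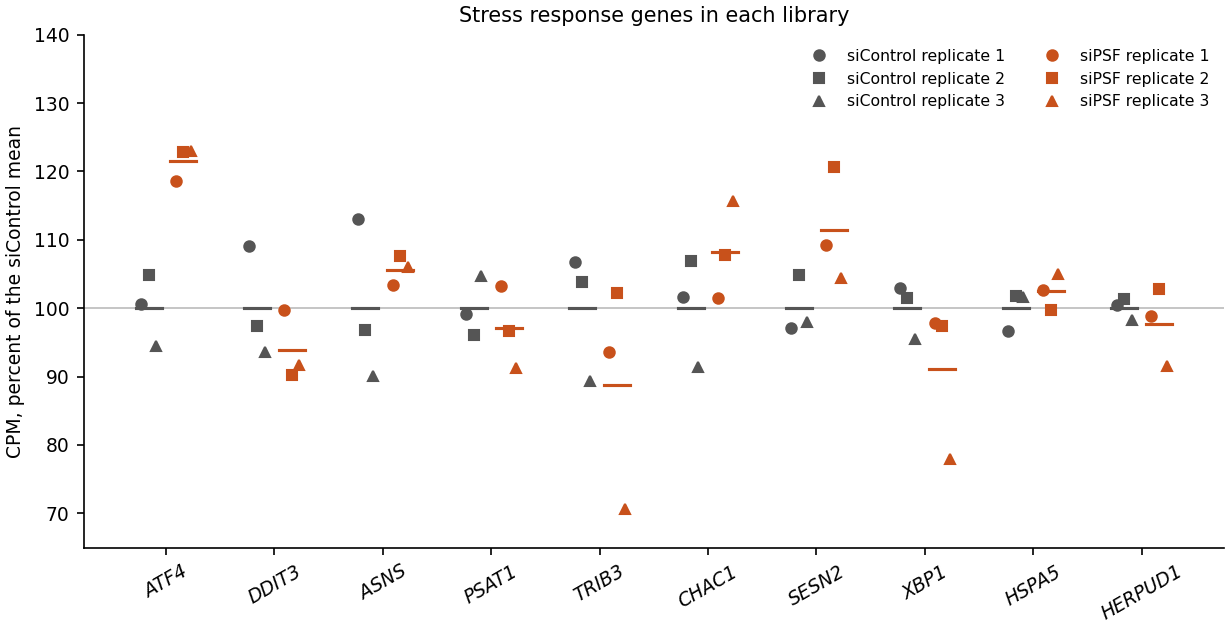
The 10 genes in each library: CPM as a percent of the gene's siControl mean, siControl in grey and siPSF in orange, marker shape by replicate number, with the group mean as a bar. The siPSF points lie wholly above the siControl points in ATF4 alone, and siPSF replicate 3 lies well below the other libraries in TRIB3 and XBP1.

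None of the ER-arm genes among the 10 (XBP1, HSPA5 and HERPUD1) was called. XBP1 (gene ID 7494; chromosome 22, 28794560 to 28800569, minus strand), the transcription factor whose mRNA IRE1 splices, was at 333, 328 and 309 CPM in siControl and 317, 315 and 252 CPM in siPSF. As in TRIB3, replicate 3 of siPSF was the lowest library, while the other 2 lay within the siControl range. For XBP1 the log2 fold change was -0.13 (SE 0.10, edgeR's adjusted p = 0.40; 95% interval 78.5% to 106%), and -0.03 without siPSF replicate 3.

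HSPA5 (gene ID 3309; chromosome 9, 125234853 to 125241343, minus strand), the main Hsp70 chaperone of the ER, was at 148, 156 and 156 CPM in siControl and 157, 153 and 161 CPM in siPSF. These 6 values overlapped and the log2 fold change was 0.04 (SE 0.08, edgeR's adjusted p = 0.80). Its 95% interval ran from 91.4% to 115% of the siControl level. HERPUD1 (gene ID 9709; chromosome 16, 56932142 to 56944864, plus strand), an ER membrane protein of ER-associated degradation, was at 141, 142 and 138 CPM in siControl and 138, 144 and 128 CPM in siPSF. Its control libraries were the tightest of the 10 genes, and only siPSF replicate 3 fell below them. The log2 fold change was -0.03 (SE 0.08, edgeR's adjusted p = 0.82; 95% interval 86.7% to 110%).

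**Figure D4:**
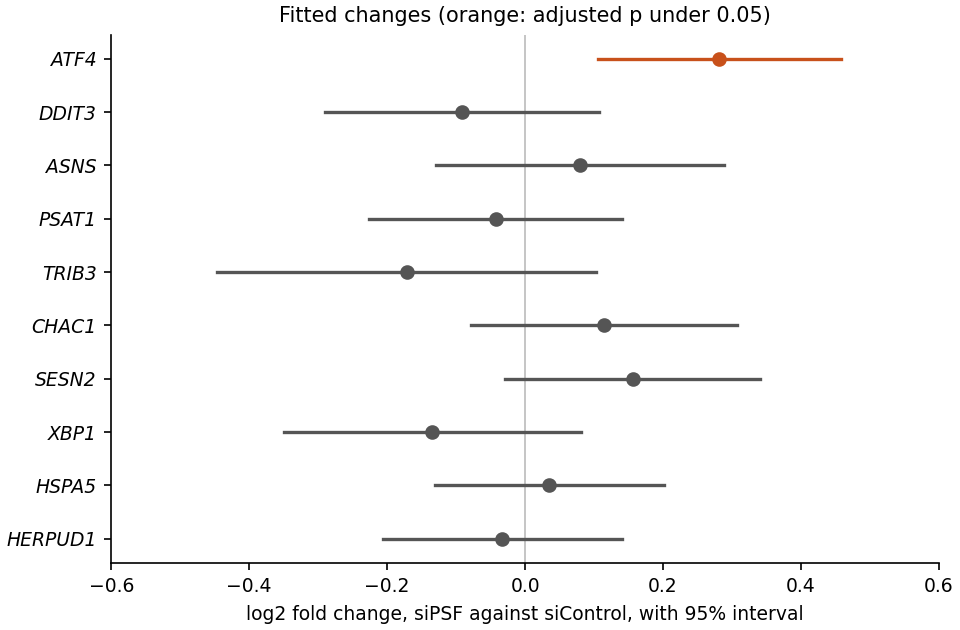
Fitted log2 fold changes of the 10 genes, siPSF against siControl, from edgeR (points) with 95% intervals (lines), orange where the adjusted p was under 0.05. Only the interval of ATF4, 0.11 to 0.46, excludes 0.

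Set side by side, the 10 genes did not follow one library. Replicate 3 of siPSF, which also had the least SFPQ and the fewest counts, was the lowest library in 4 genes (TRIB3, PSAT1, XBP1 and HERPUD1) and the highest in 3 (ATF4, CHAC1 and HSPA5). Replicate 1 of siControl was the highest in 4 genes (DDIT3, ASNS, TRIB3 and XBP1) and the lowest in 2 (SESN2 and HSPA5). Relative to the siControl mean, the siPSF replicates 1 to 3 of TRIB3 stood at -0.09, 0.04 and -0.50 on the log2 scale, those of XBP1 at -0.03, -0.04 and -0.36, and those of ATF4 at 0.25, 0.30 and 0.30. The part of siPSF replicate 3 in the values of TRIB3 and XBP1 is given by the fits without it above.

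The genes whose 6 log2 CPM values, centred on their mean, lay nearest to those of ATF4 were C1QBP, BRK1, ANKRD13D, RPARP-AS1 and PCYT1B, among 10496 other genes averaging 10 CPM or more. Their root mean square differences from ATF4 were 0.022 to 0.026 on the log2 scale. C1QBP, which encodes a mitochondrial matrix protein, had a log2 fold change of 0.25 (edgeR's adjusted p = 0.054), and BRK1, a subunit of the WAVE actin regulator, one of 0.29 (adjusted p = 0.026). None of the other 9 stress response genes was among these 5. Their log2 fold changes, 0.16 or less, already set them apart from ATF4, so this is not a separate result.

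The rest of the pathway was read from 8 lists that held 125 genes, of which 124 were tested (DERL3 was not analysed here). Of these, 10 were higher and 6 lower after siPSF, that is 12.9% beside 14.9% of all genes tested, and their median log2 fold change was 0.04 beside 0.0097. The groups did not overlap in 38 of the 124 genes, beside 34.4% of all genes tested. By list, the share called was 22.2% for eIF2 and its kinases, 8.33% for bZIP factors, 15.4% for enzymes and 0% for transporters. It was 21.1% for other ATF4 and DDIT3 targets, 16.7% for ER sensors, 9.52% for ER chaperones and 8.33% for ER-associated degradation. Of the 16 called genes, 7 kept their call in every one of the 6 fits that left out 1 library: EIF2S3, EIF2S2, BBC3, ATF3, MTHFD1L, TRIB2 and ERN1.

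**Figure D5:**
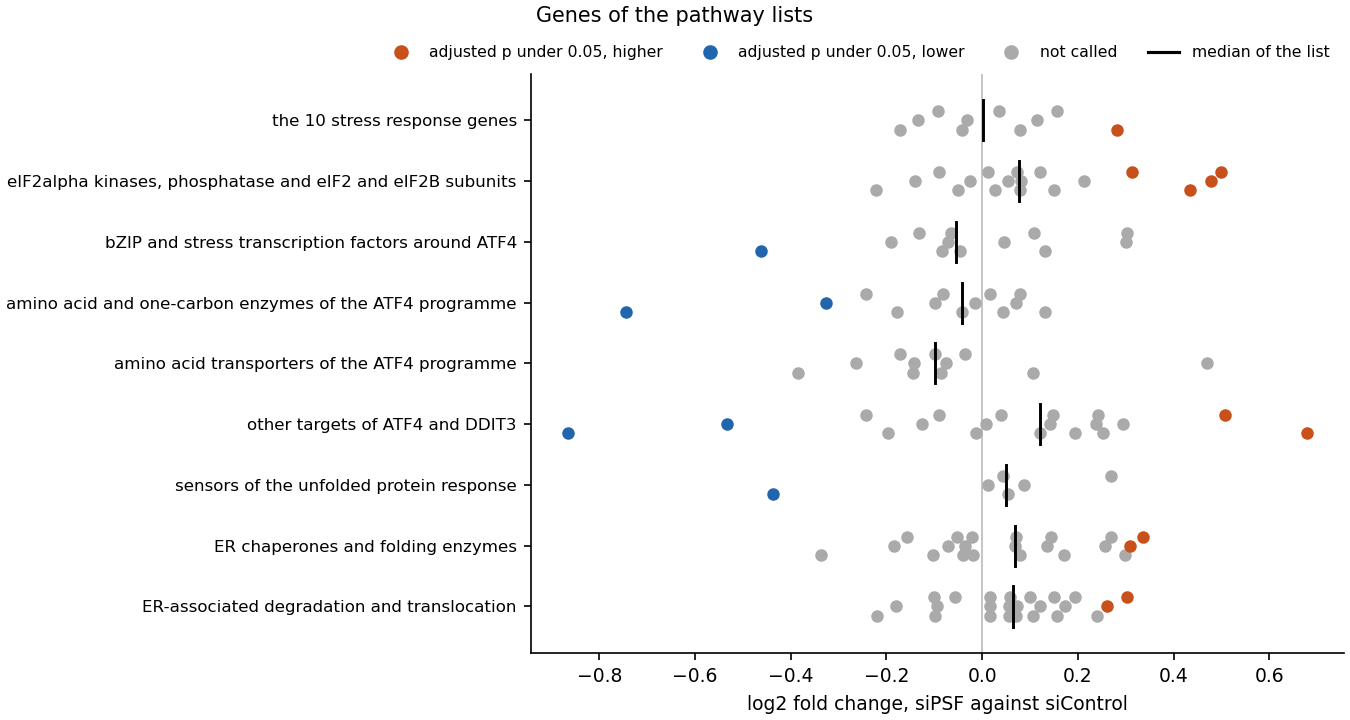
Log2 fold change, siPSF against siControl, of each tested gene of the 10 stress response genes and of the 8 pathway lists (1 point per gene, black bar the list's median). Orange and blue points have an adjusted p under 0.05, as 14.9% of all genes tested did. Of the 18 genes of the eIF2 list, 4 are orange (22.2%), 3 of them the eIF2 subunits.

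Upstream of ATF4, the genes of the 3 eIF2 subunits rose in the count-based test. Of 18 genes for the eIF2alpha kinases and their activators and inhibitors (GCN1, DNAJC3, OMA1 and DELE1), the phosphatase subunits and the subunits of eIF2 and its exchange factor eIF2B, 4 were called higher and 0 lower, and the list's median log2 fold change was 0.08. That is 22.2% called, beside 14.9% of all genes tested. EIF2S3, the gamma subunit that carries the initiator tRNA, was at 220, 208 and 236 CPM in siControl and at 307, 293 and 338 CPM in siPSF. The groups were well apart, with a log2 fold change of 0.50 (SE 0.09, edgeR's adjusted p = 0.0029). EIF2S2, the beta subunit, went from 114, 98.6 and 110 CPM to 153, 135 and 148 CPM, a log2 fold change of 0.43 (SE 0.09, edgeR's adjusted p = 0.0065). EIF2S1, the alpha subunit that the stress kinases phosphorylate, went from 95.7, 88.6 and 94.7 CPM to 120, 108 and 119 CPM, a log2 fold change of 0.31 (SE 0.08, edgeR's adjusted p = 0.024). All 3 subunits were thus higher in every siPSF library than in any siControl library, although EIF2S1 lost its call without siControl replicate 2 (adjusted p = 0.122) and without siPSF replicate 1 (0.105), and in limma on FPKM (0.0817). On FPKM rescaled to one sum, limma still called EIF2S3 (adjusted p = 0.044) but not EIF2S2 (0.12) or EIF2S1 (0.363). OMA1, a mitochondrial protease that starts the mitochondrial branch of the response, was called higher from a low level (5.31 ± 0.531 to 7.40 ± 0.941 CPM, SD, n = 3 each; log2 fold change 0.48, edgeR's adjusted p = 0.038) and was called in 2 of the 6 fits that left out 1 library. The kinase genes EIF2AK1, EIF2AK2, EIF2AK3 (PERK) and EIF2AK4 (GCN2) were not called. Their log2 fold changes were 0.05, 0.12, 0.01 and 0.21 (edgeR's adjusted p = 0.68, 0.46, 0.96 and 0.14). In EIF2AK1 and EIF2AK4 every siPSF library was above every siControl library, and the groups of 34.4% of all genes tested did not overlap.

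Among 12 bZIP and stress transcription factors, 1 was called. ATF3, which ATF4 induces and which dimerizes with other bZIP factors, was at 121, 109 and 102 CPM in siControl and 86.4, 84.5 and 70.4 CPM in siPSF. Every siPSF library was below every control, and the log2 fold change was -0.46 (SE 0.10, edgeR's adjusted p = 0.0093). ATF3 RNA thus fell where ATF4 RNA was called higher.

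No gene of the amino acid programme of ATF4 was called higher by edgeR. Of 13 enzymes of amino acid and one-carbon metabolism, 2 were called lower and 0 higher (median log2 fold change -0.04), and of 11 amino acid transporters none was called (median -0.10; SLC43A1 and SLC7A3, with the smallest p-values, had log2 fold changes of 0.47 and -0.38 and edgeR adjusted p-values of 0.053 and 0.094). At an unadjusted p under 0.05, 3 enzymes were lower and 0 higher, and 1 transporter was higher and 1 lower. DESeq2's Wald test called 2 enzymes lower, 1 transporter higher and 1 lower. MTHFD1L, a mitochondrial formate-producing enzyme, was at 132, 127 and 124 CPM in siControl and 78.2, 81.5 and 69.3 CPM in siPSF, with no overlap and a log2 fold change of -0.74 (SE 0.09, edgeR's adjusted p = 2.6e-04). It spans 236 kb on chromosome 6 (150865702 to 151101887), the longest of the 16 called genes. The other genes called lower span 91.0 kb (ERN1), 67.0 kb (SESN3), 55.4 kb (ATF3), 33.8 kb (GOT1) and 25.8 kb (TRIB2). Among the genes called higher, SESN1 spans 111 kb, OMA1 66.0 kb and the rest 10.0 kb (ERP29) to 33.2 kb (UBE2G2). The 10 stress response genes span 2.13 to 76.8 kb, and a relation of length to the changes was not tested. GOT1, the cytosolic aspartate aminotransferase, had a log2 fold change of -0.33 (edgeR's adjusted p = 0.019) and was called in 3 of the 6 fits that left out 1 library.

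A mixed list of 19 other ATF4 and DDIT3 targets, with relatives of TRIB3, SESN2 and CHAC1 beside them, held 2 genes called higher and 2 called lower. BBC3, the pro-apoptotic BCL2 family gene PUMA and a p53 target as well, was at 55.3, 45.7 and 42.6 CPM in siControl and 83.1, 85.1 and 61.5 CPM in siPSF, with no overlap and a log2 fold change of 0.68 (SE 0.13, edgeR's adjusted p = 0.0053). SESN1, another p53 target, had a log2 fold change of 0.51 (adjusted p = 0.023) and was called in 1 of the 6 fits that left out 1 library. Its paralogue SESN3 was called lower, at 16.9, 24.7 and 27.4 CPM in siControl and 18.0, 15.3 and 14.5 CPM in siPSF. Its groups overlapped, its log2 fold change was -0.53 (edgeR's adjusted p = 0.042), and it was named after its values were seen. It was called in 2 of the 6 fits that left out 1 library, and not without a filter on low counts (adjusted p = 0.071). TRIB2, a paralogue of TRIB3, went from 73.9, 88.1 and 103 CPM to 48.0, 46.4 and 51.0 CPM, with a log2 fold change of -0.86 (SE 0.11, edgeR's adjusted p = 4.9e-04). The sestrins and tribbles paralogues thus stood on both sides of 0, with TRIB3 and SESN2 themselves not called.

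In the ER, 1 of 6 sensor genes was called and it was lower. ERN1, which encodes the kinase and RNase IRE1 that splices XBP1 mRNA, was at 33.8, 31.6 and 35.2 CPM in siControl and 23.7, 25.7 and 24.9 CPM in siPSF. The groups were apart, and the log2 fold change was -0.44 (SE 0.09, edgeR's adjusted p = 0.0078). Of 21 ER chaperones and folding enzymes, 2 were called higher and 0 lower (median log2 fold change 0.07). These were ERP29, which went from 289 ± 12.4 to 364 ± 22.4 CPM, and HSP90B1 (GRP94, the Hsp90 of the ER), which went from 269 ± 17.0 to 333 ± 28.3 CPM (SD, n = 3 each). Their log2 fold changes were 0.34 and 0.31 (edgeR's adjusted p = 0.019 and 0.039), and each was called in 2 of the 6 fits that left out 1 library. Of 24 tested genes for ER-associated degradation and translocation, UBE2G2 and SSR2 were called higher and none lower (log2 fold changes 0.26 and 0.30, edgeR's adjusted p = 0.038 each, called in 1 and 0 of those 6 fits).

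The deposited counts summed to 119019293 to 132420931 in the siControl libraries and 101540520 to 120627283 in the siPSF libraries. In no library had any of the 10 genes fewer than 4963 counts. The part of counting error in the spread between replicates was not computed. All 9 markers of noradrenergic neuroblastoma were tested. Of these, DBH, TH and ELAVL4 were lower and GATA3 higher, that is 44.4% called, beside 14.9% of all genes tested. TH was at 0.741 CPM in siControl. The summed level of the 9 markers was 4738 to 5133 CPM in siControl and 4208 to 4640 CPM in siPSF. DBH lost more CPM than any other marker of this list, with a mean of 1738 CPM over the siControl libraries and 1085 CPM over the siPSF libraries. Among the 9 markers, 4 had a log2 fold change above 0, and the median was -0.0037. The lower sum was thus not a fall shared by the whole list. Of 9 mesenchymal and stromal markers 8 were tested, and FN1 and COL3A1 were lower (25% called), with overlapping groups in COL3A1. LUM and COL1A1 were not called and had positive log2 fold changes of 0.57 and 0.55 (edgeR's adjusted p = 0.079 and 0.094). The median log2 fold change of this list was -0.16. The sum over the 8 tested markers was 335 to 355 CPM in siControl and 274 to 305 CPM in siPSF. Of 7 blood and endothelial markers only CD68 and CD14 were tested, with a sum of 2.76 to 4.01 CPM and 3.55 to 4.76 CPM. The part of these shifts in the values above was not tested.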

How the data were processed

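RNA-seq libraries of SH-SY5Y cells (siControl and siPSF, 3 each; groups and replicate numbers from the sample titles) were analysed from 1 table, in which the authors deposited raw read counts and FPKM values of each library by gene. Per the study's methods, poly(A) libraries were cleared of rRNA reads, mapped with TopHat to hg38 and counted on RefSeq. The submitters' processing notes name Trimmomatic, HISAT2 2.1.0 and StringTie 2.1.3b instead, and both name the same genome build. Every gene in the table has at least 1 read in every library. The counts were filtered with edgeR's filterByExpr, normalized by TMM and given as CPM, and siPSF was compared with siControl by edgeR's quasi-likelihood test on all 6 libraries (edgeR 4.0.16 and limma 3.58.1 under R 4.3.3, beside DESeq2 1.42.0 for comparison), with Benjamini-Hochberg adjustment over 19694 genes and calls at an adjusted p under 0.05. Gene positions are RefSeq's of GRCh38.p14.

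The members and lists were chosen with earlier results of these data known. Named genes are the 10 members, SFPQ, the called genes with the smallest p in each list (3, or 5 where 4 or more were called in one direction; 2 uncalled ones where none was called), the 5 nearest profiles to ATF4, and pseudogenes and genes overlapping a member. SESN3, EIF2AK1, EIF2AK2, EIF2AK3, EIF2AK4 and the single markers were named outside this rule, after their values were seen. The alternatives were another normalization, no filter, DESeq2's Wald test, a replicate block, each library left out, and limma on FPKM.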

Additional observations from a re-analysis of the deposited data

How the results depend on the processing

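The 10 stress response genes were refitted under 13 alternatives each. Of these results, 118 stayed on the same side of the threshold, 8 lost a call and 4 gained one. The 8 lost calls were those of ATF4, whose adjusted p was 0.052 without a filter on low counts (log2 fold change 0.28), 0.052 with limma on FPKM rescaled to one sum (0.29) and up to 0.10 with 1 library left out (0.24 to 0.31). That rescaling also called DDIT3 (-0.27), TRIB3 (-0.38), XBP1 (-0.33) and HERPUD1 (-0.22) lower, but it moved the median of all genes to -0.16. Relative to that median these 4 genes stood at -0.11, -0.22, -0.17 and -0.06 and ATF4 at 0.45. The rescaling gave 3872 called genes, 12% of them higher beside 44.6% in the report, and limma on FPKM without it gave 29.2% higher.

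The number of the 10 genes called was 1 in the report, 0 without a filter, 0 in each fit with 1 library left out, and 4, all lower, on rescaled FPKM. The pathway lists, with 10 genes higher and 6 lower in the report, held 5 higher and 7 lower with limma on FPKM, 28 (2 higher and 26 lower) on rescaled FPKM, and 7 to 19 with 1 library left out. Of the results of the other named genes, 235 stayed on the same side of the threshold, 68 lost a call and 9 gained one, and no called value changed direction. Limma on FPKM no longer called EIF2S1, OMA1, SESN3, HSP90B1, UBE2G2 and SSR2. With 1 library left out, all genes called ranged from 1500 (without siControl replicate 2; 1754 without siControl replicate 3) to 3140, and DESeq2's Wald test called 3644. The pathway lists reached 7 without siControl replicate 2, and 10 without siControl replicate 1 or without siPSF replicate 1.

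Whether same-numbered libraries are pairs is not settled by the data. The correlations of their deviations from the group means were -0.02, 0.27 and 0.11, and those of differently numbered libraries ran from -0.31 to 0.19. The numbers come from the sample titles alone and were not taken as pairs in the report. With a replicate block, 3029 genes, 1 of the 10 genes (ATF4, adjusted p = 0.037) and 17 pathway genes were called, and SESN3 lost its call (0.089). With 3 libraries a group, each of the 9 uncalled genes has its own 95% interval, given in the report, and a change inside it was not distinguished from none. The cause of the changes between settings was not tested.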
